A study of Caenorhabditis elegans with 123 samples.

Results

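The genes pha-4, ceh-51, tbx-35 and tps-2 were followed through early embryogenesis of Caenorhabditis elegans by every probe set that the array's annotation gives to one of these symbols alone. This rule found 4 genes of the 17118 that have such a probe set, by 5 probe sets of the 22548 tested, 2 for pha-4 (Entrez gene 180357) and 1 each for ceh-51 (180233), tbx-35 (191239) and tps-2 (3565050). For pha-4 the brighter probe set stands for the gene, and the other is described beside it.

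MS is a founder cell of the early embryo that gives rise to the posterior pharynx and to much of the body muscle, and E, its sister, makes the intestine. In their mother, EMS, the maternal factor SKN-1 switches on the MED GATA factors, which activate the T-box gene tbx-35 in MS. TBX-35 in turn activates the homeobox gene ceh-51, and both act together in MS development. The FoxA factor PHA-4 gives pharyngeal cells their organ identity, in descendants of MS and, after Notch signalling from MS, in descendants of the anterior founder AB. The gene tps-2 encodes a trehalose 6-phosphate synthase, an enzyme that makes the precursor of the sugar trehalose.

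Staged pools of whole embryos were hybridised to Affymetrix C. elegans arrays at 10 times, 0, 23, 41, 53, 66, 83, 101, 122, 143 and 186 min, counted from the 4-cell stage. Embryos were kept at 22 °C. The 4 genotypes were the wild-type strain N2 (34 arrays), mex-3(zu155); skn-1(RNAi) (28 arrays, mex-3/skn-1 below), pie-1(zu154) (27 arrays) and pie-1(zu154); pal-1(RNAi) (34 arrays, pie-1/pal-1 below), with 2 to 4 arrays per genotype and time. Double-stranded RNA was given by feeding, according to the array description files. As background, MEX-3 represses translation of pal-1, the posterior fate gene, in anterior cells, and blastomeres of embryos without mex-3 and skn-1 develop largely like the posterior founder C. PIE-1 keeps the germline blastomeres silent, and without it the blastomere P2 develops like EMS. All arrays measured whole embryos, so fewer cells of a type and less RNA per cell cannot be told apart.

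Values are the deposited log2 levels, on which a difference of 1 is 2-fold, and array medians lay between 3.24 and 3.41. Levels near these medians were close to the lower end of what the arrays measured. Times were grouped into an early (0, 23 and 41 min), a middle (53, 66 and 83 min) and a late window (101 to 186 min). Only probe sets past both limits are described as called, higher or lower, or as rising or falling, namely an adjusted p under 0.05 in limma's test over all 22548 probe sets and a change of at least 2-fold. Differences are given ± SE from that fit. Embryo numbers, given for 14 mex-3/skn-1 arrays, differ between replicates wherever a time has more than 1 of them (0, 83 and 186 min), so those replicates held separate pools. For the other arrays nothing says whether replicates were collected separately, and their spread may be technical. None of the 9 scan days, known for 96 arrays, held more than 1 genotype, so scan day and genotype cannot be told apart. Scan day was unknown for 26 pie-1 arrays and 1 mex-3/skn-1 array. Within N2 it also followed time. Day 1 held 17 arrays of 0 to 83 min, and day 2 held 12 arrays of 66 and 101 to 186 min. Only the 5 arrays of day 3, of 41, 53, 83, 101 and 122 min, all noted as rehybridised, otherwise spanned both ranges. Differences between late and earlier N2 times therefore ran largely across scan days.

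The targeted genes checked the labels in part. The mex-3 level in the early window ranged from 6.38 to 9.02 in N2 and from 3.16 to 3.95 in mex-3/skn-1 arrays, without overlap. In the late window it reached 6.36 in a mex-3/skn-1 array, above every late N2 array (highest 5.33), while by the other mex-3 probe set the late ranges were 2.91 to 3.88 and 3.94 to 5.32. Late pie-1/pal-1 arrays, where mex-3 was not targeted, reached 9.46 by the first and 4.30 by the other probe set. The early pie-1 level ranged from 6.86 to 8.20 in N2, from 3.16 to 3.76 in pie-1 and from 3.15 to 3.76 in pie-1/pal-1 arrays. All 3 skn-1 probe sets were dim. By the brightest the early medians were 3.91 in N2 and 3.67 in mex-3/skn-1 arrays, which overlapped, whereas another ranged from 3.21 to 4.83 in N2 and from 2.51 to 2.93 in mex-3/skn-1 arrays, without overlap. The pal-1 level in early pie-1/pal-1 arrays had a median of 5.55 but reached 12.21. It reached 12.49 in 1 middle pie-1 array, where pal-1 was not targeted. By this gene such arrays stay in doubt, and the reason for their high levels was not tested. The pal-1 level of late pie-1/pal-1 arrays reached 10.32, above every late N2 array (highest 7.66). The main pie-1/pal-1 differences from N2 in the late window are also given within each of the 2 scan days of that genotype. That split keeps the doubted arrays, so it does not answer this doubt. Among the 3792 brighter probe sets (mean of at least 5) the mutants measured below N2, with median differences between -0.516 and -0.196, whereas the medians over all probe sets lay between -0.007 and 0.011.

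**Figure D1:**
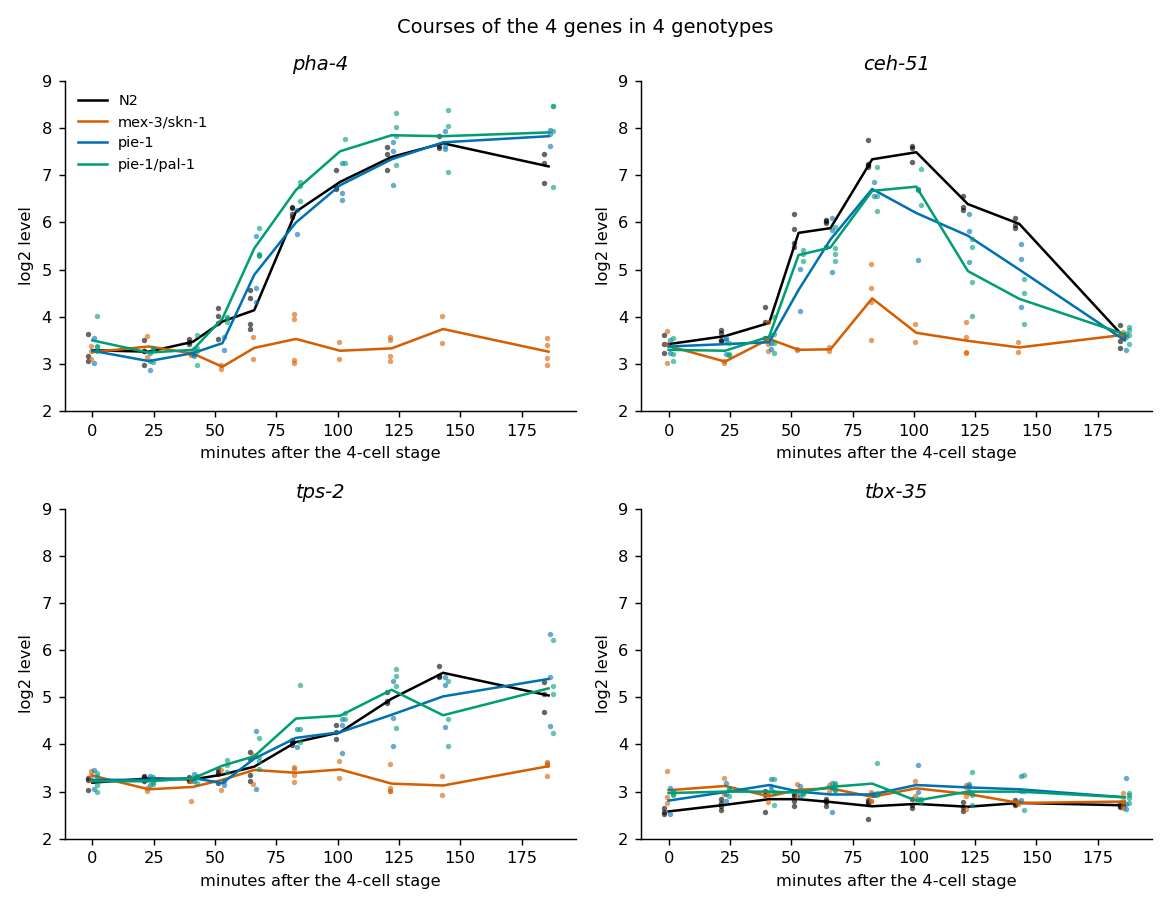
Levels of pha-4, ceh-51, tps-2 and tbx-35 (log2, vertical axes) against minutes after the 4-cell stage in the 4 genotypes, with 1 point per array and lines through the group means. In N2 pha-4 climbed to 7.68 and measured 7.19 at the end, ceh-51 peaked at 7.49 and returned to 3.55, tps-2 climbed to 5.52, and tbx-35 stayed between 2.58 and 2.84.

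In wild-type embryos the MS homeobox gene ceh-51 was the earliest to rise of the 3 genes with a readable course, and its transcript came and went within the time course. At 0 min the N2 arrays measured 3.61, 3.24 and 3.42, and at 41 min 3.88, 4.20 and 3.54. At 53 min they measured 5.57, 5.87, 6.19 and 5.48. The arrays at 53 min all lay above those of the earlier times, and this was the first time called against 0 min, with a difference of 2.35 ± 0.28 (adjusted p = 5.2e-11). The level was 5.47, 5.98, 6.05 and 6.03 at 66 min, 7.74, 7.18, 7.23 and 7.21 at 83 min, and 7.62, 7.28 and 7.58 at 101 min. The means at 83 and 101 min (7.34 and 7.49) were the highest of the course, and their arrays overlapped. The transcript then measured 6.57, 6.33 and 6.27 at 122 min, 6.09, 5.88 and 5.95 at 143 min, and 3.49, 3.82 and 3.33 at 186 min. By 186 min the arrays overlapped those at 0 min again, with a difference of 0.12 (95% interval -0.48 to 0.72).

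Between 101 and 186 min ceh-51 fell by 3.95 ± 0.30 in N2 (adjusted p = 1.11e-19), a contrast of single times chosen after the values were seen. In that contrast 4.72% of all probe sets were called lower. The pha-4 and tps-2 probe sets were not called there, with differences of 0.32 (95% interval -0.24 to 0.88) and 0.77 (0.18 to 1.36). The late window spans the peak and the loss of ceh-51, so its difference from the middle window was only -0.48 ± 0.15 and was not called. It was called lower, at -1.31, with the late window cut to 122 to 186 min and the middle one to 66 and 83 min, and also, at -1.59, over the times with numbered N2 arrays. It had the opposite sign, at 0.69 and not called, over the times with lettered N2 arrays.

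The organ identity gene pha-4 rose later and was still high at the last time. Its N2 arrays measured 3.07, 3.64 and 3.17 at 0 min, 4.19, 4.02, 3.87 and 3.53 at 53 min, and 3.75, 3.85, 4.56 and 4.39 at 66 min. At 83 min they measured 6.31, 6.18, 6.11 and 6.32. All arrays at 83 min lay more than 1 above every earlier one, and this was the first time called against 0 min (2.94 ± 0.27, adjusted p = 1.97e-16). At 66 min the difference from 0 min was 0.85 ± 0.27 (adjusted p = 0.0132), under 2-fold, and it was called, at 1.02, without the N2 array at 0 min, replicate C. Later arrays measured 7.11, 6.76 and 6.72 at 101 min, 7.46, 7.60 and 7.11 at 122 min, 7.63, 7.83 and 7.58 at 143 min, and 7.46, 7.26 and 6.84 at 186 min. The mean was highest at 143 min, at 7.68 ± 0.13 (SD, n = 3), and the arrays at 122 and 143 min overlapped. All arrays at 186 min lay below those at 143 min, and the mean step was -0.49. At 143 min the level stood 4.39 ± 0.28 above 0 min, 21.0-fold.

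The trehalose enzyme gene tps-2 was the last of these 3 to be called. Its N2 arrays measured 3.03, 3.29 and 3.24 at 0 min, 4.08, 4.10, 3.98 and 4.05 at 83 min, and 4.26, 4.12 and 4.41 at 101 min. They reached 4.92, 4.87 and 5.11 at 122 min, 5.45, 5.67 and 5.44 at 143 min, and 5.08, 4.69 and 5.33 at 186 min. The 83 min arrays already lay above all those at 0 min, but the difference of 0.87 ± 0.28 (adjusted p = 0.0115) was under 2-fold. The first time called was 101 min (1.08 ± 0.30, adjusted p = 0.003), a call that was lost with quantile normalization (0.86), with scan day as a random (0.99) or fixed block (0.82), and without the N2 array at 0 min, replicate B. At 143 min tps-2 stood 2.34 ± 0.30 above 0 min, against 4.39 by the brighter and 2.32 by the other pha-4 probe set.

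The T-box gene tbx-35 was not called in any comparison. Over all arrays its probe set ranged from 2.41 to 3.61 with a mean of 2.91, below every array median, and 18.8% of all probe sets had a lower mean. In N2 the group means lay between 2.58 at 0 min and 2.84 at 41 and 53 min. The arrays at 41 min measured 2.93, 3.02 and 2.56 and overlapped those at 0 min, at 2.66, 2.56 and 2.52. The difference at 41 min was 0.25 (95% interval -0.07 to 0.58). At such a level the values do not show whether the transcript was present, and the course of tbx-35 cannot be read from these arrays.

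Counted over the single times, none of the 4 genes was called against 0 min at 23 or 41 min, where 3.51% and 4.25% of all probe sets were called in either direction. One gene was higher at 53 and at 66 min, beside 4.96% and 4.30% of all probe sets called higher. There were 2 at 83 min (7.20%) and 3 at 101 (6.95%), 122 (8.13%) and 143 min (9.43%). At 186 min pha-4 and tps-2 were higher (7.44%).

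**Figure D2:**
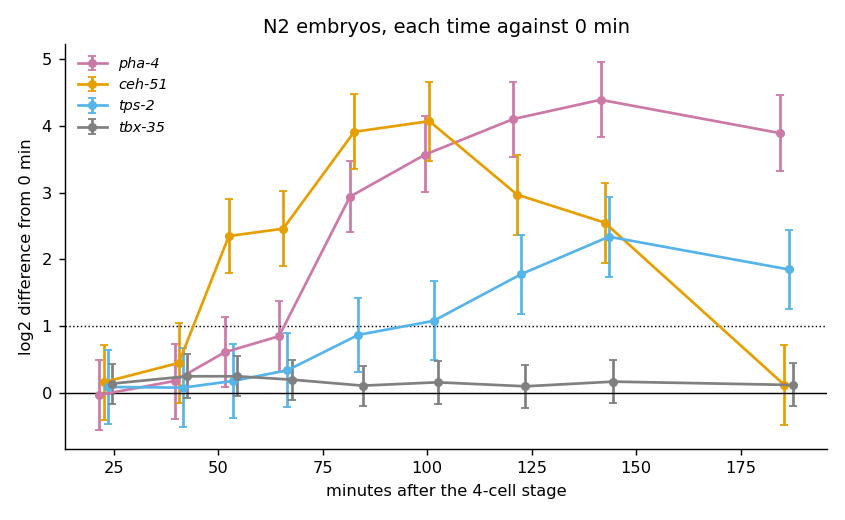
Difference of each N2 time from 0 min (log2, vertical axis) against minutes after the 4-cell stage for the 4 genes, with bars for 95% intervals and a dotted line at 2-fold. The ceh-51 curve passes the line at 53 min (2.35), pha-4 at 83 min (2.94) and tps-2 at 101 min (1.08), while tbx-35 stays at or under 0.25.

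Over windows, ceh-51 and pha-4 rose from the early to the middle window in N2, by 2.71 ± 0.16 and 1.42 ± 0.15 (adjusted p = 5.28e-27 and 1.14e-13), and 3.14% of all probe sets rose. From the middle to the late window pha-4 and tps-2 rose, by 2.52 ± 0.14 and 1.30 ± 0.15 (adjusted p = 3.33e-28 and 3.8e-12), where 3.40% did. The middle-window call of pha-4 rested on 83 min, since the difference was 0.68 and not called when 83 min was left out, an alternative chosen after the values were seen.

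In N2 the pha-4 probe sets moved in the same direction but by different amounts. Over the 40 group means they correlated with r = 0.942, a description across groups that share genotypes and times. In N2 the other probe set rose from 3.50 ± 0.21 at 0 min (SD, n = 3) to 5.82 ± 0.08 at 143 min (n = 3), against 3.29 and 7.68 by the brighter one. Its middle minus early difference in N2 was 0.68 ± 0.11, under 2-fold, and its late minus middle difference was 1.27 ± 0.10 (adjusted p = 1.01e-18). The brighter probe set carries the platform's suffix for probes shared among transcripts of a gene family or among transcript forms. The only ceh-51 probe set carries it too, and the transcripts each probe set detects were not examined here.

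**Figure D3:**
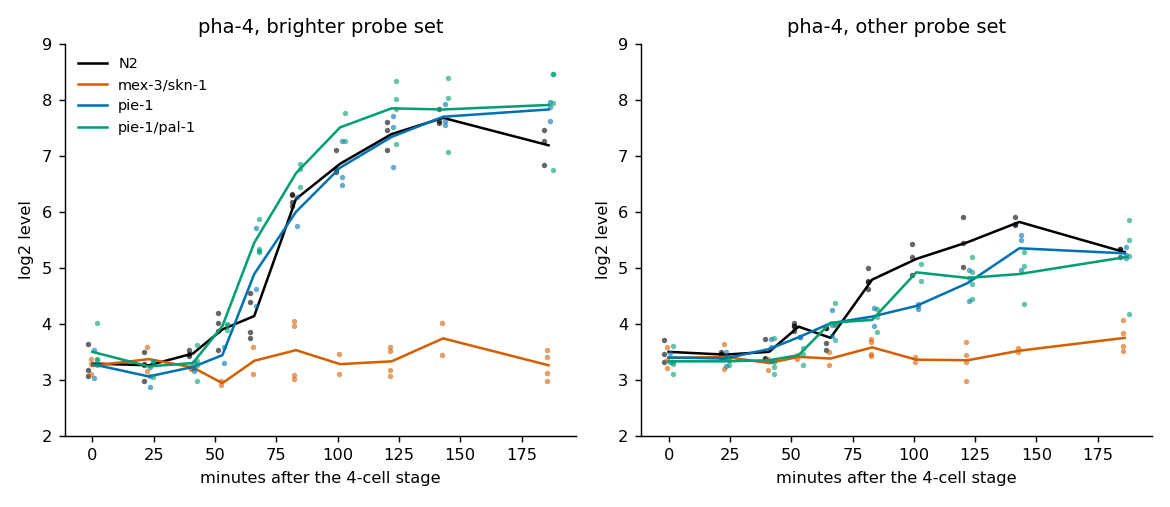
Levels (log2, vertical axes) of both pha-4 probe sets against minutes after the 4-cell stage, with 1 point per array and lines through the group means of the 4 genotypes. The mex-3/skn-1 group means span only 0.80 and 0.45, and the N2 peak at 143 min is 7.68 by the brighter probe set and 5.82 by the other.

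In mex-3/skn-1 embryos pha-4 stayed at its starting level throughout. Its 28 arrays ranged from 2.90 to 4.05, and the 10 group means spanned 0.80. At 143 min the arrays measured 3.45 and 4.02, and at 186 min 3.54, 3.41, 3.12 and 2.97, against 6.84 to 7.83 in N2 at these times. Both 143 min arrays stood far from their group mean over the brighter probe sets. The description file of the first 186 min array notes 143 min. No late mex-3/skn-1 array came within 2 of the lowest late N2 array, at 6.72. The middle minus early difference was -0.01 (95% interval -0.37 to 0.35) and the late minus middle difference 0.13 (-0.20 to 0.46). None of the 4 genes was called in these time contrasts, where 6.16% and 5.76% of all probe sets were called in either direction. From 101 to 186 min, too, none was called, beside 9.14%.

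Against N2 pha-4 did not differ beyond the threshold early (-0.06, 95% interval -0.39 to 0.27). It was lower by -1.49 ± 0.16 in the middle window (adjusted p = 4.7e-12) and by -3.88 ± 0.15 in the late one (adjusted p = 4.78e-40), 14.7-fold. The other probe set gave -0.71, under 2-fold, and -1.93 (adjusted p = 1.38e-28). The middle difference was also under 2-fold, at -0.88, without 83 min. With arrays centred on the brighter probe sets the late difference was -3.28 and still called. The late minus early rise was smaller than that of N2 by -3.82 ± 0.22 (adjusted p = 2.72e-26).

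The MS gene ceh-51 also stayed low in mex-3/skn-1 embryos, apart from an excursion at 83 min. At 53 min these arrays measured 3.29 and 3.32 and at 66 min 3.35 and 3.27, against 5.47 to 6.19 in N2. At 83 min they measured 3.51, 4.61, 5.13 and 4.32. Of these 4 arrays 3 lay above every mex-3/skn-1 array of the other times, and all 4 lay below the lowest N2 array at 83 min, at 7.18. The arrays measured 3.47 and 3.85 at 101 min and 3.62, 3.58, 3.68 and 3.61 at 186 min, when N2 had returned to the same level. All 4 arrays at 83 min were scanned on 1 day, which also held arrays of 0, 53, 66, 122, 143 and 186 min, and the part of handling in this excursion was not tested. Against N2 ceh-51 was lower by -2.66 ± 0.17 in the middle (adjusted p = 1.52e-23) and by -2.32 ± 0.16 in the late window (adjusted p = 1.89e-23). The late difference was called in every alternative run. It ranged from -3.22 over the lettered times (101 and 143 min) to -1.41 over the numbered ones (122 and 186 min). Early it measured -0.31 (95% interval -0.66 to 0.05).

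The tps-2 level in mex-3/skn-1 embryos ranged from 2.81 to 3.77 over 28 arrays. At 143 min the arrays measured 2.92 and 3.34, and at 186 min 3.57, 3.62, 3.60 and 3.34, all below the lowest late N2 array, at 4.12. The limits given for these arrays under pha-4 hold here too. The late difference from N2 was -1.62 ± 0.15 (adjusted p = 2.21e-15), and the rise was smaller by -1.54 ± 0.23 (adjusted p = 1.82e-07). The early and middle differences were -0.08 and -0.28 and were not called. With arrays centred on the brighter probe sets the late difference was -1.02, just past the 2-fold minimum.

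Of the 4 genes, 2 were lower than N2 in the middle window, ceh-51 and pha-4, where 3.48% of all probe sets were. In the late window 3 were lower, all but tbx-35, where 6.12% were. In the early window none was called, beside 7.19% in either direction. The late minus early change was smaller for the same 3 genes, beside 2.23% of probe sets. For tbx-35 the differences from N2 were 0.30, 0.23 and 0.17 in the early, middle and late windows, all under 2-fold (adjusted p = 0.00821, 0.0583 and 0.102). With arrays centred on the brighter probe sets the late one was 0.77.

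**Figure D4:**
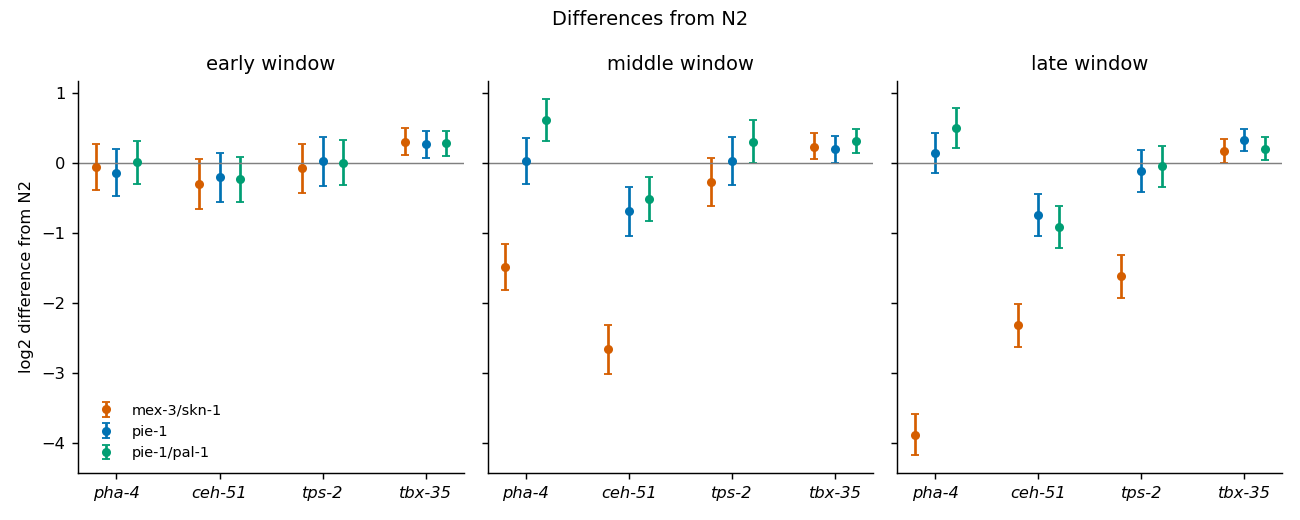
Difference of each mutant from N2 (log2, vertical axes) for the 4 genes in the early, middle and late windows, with bars for 95% intervals. Only mex-3/skn-1 falls far below 0, for ceh-51 (-2.66) and pha-4 (-1.49) in the middle window and for pha-4 (-3.88), ceh-51 (-2.32) and tps-2 (-1.62) in the late one.

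In pie-1 embryos, where PIE-1 is missing but skn-1 was not targeted, pha-4 rose over the same windows as in N2. The arrays measured 4.32, 5.72 and 4.62 at 66 min, 5.75 and 6.26 at 83 min, 6.48, 6.63 and 7.27 at 101 min, and 7.62, 7.88 and 7.97 at 186 min. The 186 min arrays all lay above those of N2 at that time, whose highest was 7.46, while the groups at 66 and 101 min overlapped. Over windows pie-1 minus N2 was -0.15 early (95% interval -0.48 to 0.19), 0.02 in the middle (-0.31 to 0.35) and 0.14 late (-0.15 to 0.42). The other pha-4 probe set gave -0.52 in the late window (adjusted p = 3.93e-05), under 2-fold and opposite in sign to the brighter one. Within pie-1 embryos pha-4 rose by 1.58 ± 0.18 from the early to the middle and by 2.64 ± 0.17 from the middle to the late window. Both were under 2-fold by the other probe set (0.52 and 0.95), and the first also without 83 min (0.97).

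The course of ceh-51 in pie-1 embryos had the same form at a somewhat lower level. Its arrays measured 4.12 and 5.01 at 53 min, 6.57 and 6.86 at 83 min, 5.21, 6.71 and 6.69 at 101 min, and 3.29, 3.58 and 3.63 at 186 min. The arrays at 53, 83 and 101 min lay below all N2 arrays of the same time, and those at 186 min overlapped. The differences from N2 were -0.69 ± 0.18 in the middle window (adjusted p = 0.00141) and -0.75 ± 0.15 in the late one (adjusted p = 4.06e-05), both under 2-fold. They were -0.21 and -0.37 with arrays centred on the brighter probe sets, a scaling under which the middle difference had an adjusted p of 0.283. Leaving out each array in turn, the pie-1 array with high pal-1 included, brought the middle difference to between -0.84 and -0.55. The late one was called, at -1.13, over the times with lettered N2 arrays. From 101 to 186 min ceh-51 fell by 2.70 ± 0.30 (adjusted p = 6.78e-12).

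For tps-2 the pie-1 arrays measured 4.54, 4.41 and 3.83 at 101 min, 5.43, 5.26 and 4.38 at 143 min, and 5.43, 4.39 and 6.35 at 186 min. They spread more widely than the N2 arrays and overlapped them at 101 and 186 min. The late minus middle rise was 1.15 ± 0.18 (adjusted p = 8.14e-08), under 2-fold over the times with lettered N2 arrays (0.94), and the late difference from N2 was -0.12 (95% interval -0.42 to 0.18). In the time contrasts of pie-1 embryos ceh-51 and pha-4 rose from early to middle, beside 2.70% of probe sets, and pha-4 and tps-2 from middle to late, beside 3.09%. From 101 to 186 min pha-4 (1.03) and tps-2 (1.13) were called higher, beside 2.39%, and ceh-51 lower, beside 3.03%. Both higher calls were lost without pie-1 186 min replicate 4 (0.96 and 0.65). The pha-4 call was also lost without pie-1 101 min replicate 2 (0.87) or 3 (0.95), and the tps-2 call without replicate 4 of that time (0.92). The pha-4 call was lost as well with quantile normalization (0.97) and by the other probe set (0.95), and the tps-2 call with array weights (0.92, adjusted p = 0.0647).

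None of the 4 genes was called between pie-1 and N2 in the early, middle or late window, where 2.56%, 3.77% and 2.96% of all probe sets were called in either direction. None differed in its late minus early change either, beside 0.887%. That change minus the change of N2 was 0.28 ± 0.22 for pha-4, -0.54 ± 0.23 for ceh-51 and -0.14 ± 0.23 for tps-2.

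In pie-1/pal-1 embryos pha-4, by its brighter probe set, reached the highest levels of the series and lay above every N2 array at 66 min. At 66 min its arrays measured 5.88, 5.28, 5.31 and 5.33, all above the highest N2 array at that time, at 4.56. At 83 min they measured 6.85, 6.77 and 6.45, again all above N2, whose highest array was 6.32. By the other probe set the order at 83 min was the reverse, with pie-1/pal-1 arrays at 3.85, 4.26 and 4.12 below every N2 array (4.63 to 5.00), and its highest group mean of the series was that of N2 (5.82). At 53 min the arrays (3.98, 4.00 and 3.89) overlapped those of N2. Late arrays measured 7.77 and 7.26 at 101 min, 8.02, 7.83, 7.22 and 8.33 at 122 min, 8.39, 8.04 and 7.07 at 143 min, and 8.46, 8.46, 7.95 and 6.75 at 186 min. They overlapped N2 at 122, 143 and 186 min. The lowest, at 186 min, came from replicate 4, an array that stood far from its group over the brighter probe sets. Without the 5 such arrays of the series the late difference from N2 was 0.59.

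The difference of pha-4 from N2 was 0.01 early, 0.61 ± 0.15 in the middle window (adjusted p = 0.000643) and 0.49 ± 0.14 late (adjusted p = 0.00454), both under 2-fold and so not called. The late difference was 0.83 ± 0.14 over arrays of 1 scan day (19 arrays) and -0.04 ± 0.19 over those of the other (15 arrays), which has none at 101 min. For the latter value 101 min was left out of N2 too. The middle difference was 0.70 and 0.48 within these days. By the other pha-4 probe set the middle and late differences were -0.32 and -0.47, opposite in sign. Against pie-1 embryos pha-4 measured 0.59 ± 0.17 higher on the log2 scale in the middle (adjusted p = 0.0762) and 0.36 ± 0.14 late (adjusted p = 0.17), and neither was called.

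The ceh-51 arrays of pie-1/pal-1 measured 5.34, 5.19 and 5.41 at 53 min, 7.18, 6.57 and 6.24 at 83 min, and 6.38 and 7.13 at 101 min. They then measured 5.48, 5.64, 4.73 and 4.02 at 122 min, 4.80, 3.84 and 4.51 at 143 min, and 3.61, 3.43, 3.71 and 3.79 at 186 min. At 101, 122 and 143 min all lay below every N2 array of the same time, and at 186 min the groups overlapped. The lowest array at 122 min, replicate 5, is one whose description file notes 143 min. The late difference from N2 was -0.92 ± 0.15 (adjusted p = 1.05e-06), just under 2-fold, and the middle one -0.52 ± 0.16. The late difference was -0.82 and -1.09 within the scan days, and -0.67 with arrays centred on the brighter probe sets. The value of -1.09 was called, and it leaves 101 min out of both genotypes. It was also called, at -1.01, without pie-1/pal-1 101 min replicate 2, and at -1.16 over the times with lettered N2 arrays. From 101 to 186 min ceh-51 fell by 3.12 ± 0.32 (adjusted p = 1.85e-13), where 3.26% of all probe sets did.

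For tps-2 the pie-1/pal-1 arrays measured 5.46, 5.61, 4.34 and 5.24 at 122 min, 5.34, 4.55 and 3.97 at 143 min, and 6.21, 5.24, 5.07 and 4.24 at 186 min. They overlapped N2 at 122 and 186 min and lay below it at 143 min. The late minus middle difference of 0.94 ± 0.16 was just under 2-fold. It was 1.26, and called, within the larger scan day and 0.61 within the other. Leaving out 1 array, the 83 min replicate 2, 122 min replicate 3, 143 min replicate 4 or 186 min replicate 4, brought it to between 1.01 and 1.06, and so to a call. Against N2 tps-2 differed by 0.00, 0.30 and -0.05 in the early, middle and late windows, and the late value was 0.33 and -0.76 within the scan days.

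In pie-1/pal-1 embryos ceh-51 (2.43 ± 0.16) and pha-4 (2.02 ± 0.15) rose from the early to the middle window, beside 3.71% of probe sets, and pha-4 (2.41 ± 0.15) from the middle to the late one, beside 3.77%. The first pha-4 rise was under 2-fold by the other probe set (0.51). The late minus middle difference of ceh-51 was -0.88 ± 0.16, under 2-fold, and was called in narrow windows (-1.74). Against N2 none of the 4 genes was called in the early, middle or late window, beside 3.92%, 4.58% and 2.33% in either direction, nor in the late minus early change, beside 1.17%. Against pie-1 none was called in the middle or late window, where 0.155% and 0.0399% of all probe sets were. The 95% intervals of the late pie-1/pal-1 minus pie-1 difference were 0.08 to 0.64 for pha-4, -0.47 to 0.13 for ceh-51 and -0.23 to 0.36 for tps-2.

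The mutants with RNAi were also set against each other without N2. In the middle window mex-3/skn-1 was lower than pie-1/pal-1 for ceh-51 (-2.15 ± 0.18) and pha-4 (-2.10 ± 0.17), 2 of the 4 genes, where 1.65% of all probe sets were lower. By the other pha-4 probe set the difference was -0.39. Late it was lower for pha-4 (-4.37 ± 0.15), tps-2 (-1.57 ± 0.15) and ceh-51 (-1.40 ± 0.16), 3 of 4, beside 2.31%. The late ceh-51 difference was under 2-fold in narrow windows (-0.84), over the times with numbered N2 arrays (-0.75) and within 1 scan day (-0.73).

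The other genes of these pathways are given from lists written with earlier results of these data known, as counts beside the median over all probe sets. Of 12 measured genes of EMS and MS specification, 1 rose from early to middle in N2, ceh-51 itself, beside 709 of all 22548 probe sets. From middle to late hnd-1, a mesodermal bHLH gene (2.08 ± 0.20), and sys-1, a beta-catenin (1.28 ± 0.15), rose. The Wnt ligand of the neighbouring cell P2, mom-2, fell by 1.51 ± 0.23. Over all probe sets 767 rose and 778 fell. The median log2 difference of the list was 0.26 and 0.47 in these contrasts, beside 0.018 and 0.001 over all probe sets. In late mex-3/skn-1 embryos 3 were lower than in N2, ceh-51, the beta-catenin wrm-1 (-1.81 ± 0.16) and the APC-related apr-1 (-1.76 ± 0.22). Over all probe sets 1379 were lower. The list's number was between 3 and 7 over the alternatives. The upstream regulator med-1 was dim, with window means of its level in N2 between 3.07 and 3.18.

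Of the 9 genes of pharynx induction in AB, a list that holds pha-4 itself, 3 rose and 3 fell in N2 from early to middle. Over all 22548 probe sets 709 rose and 1170 fell. The T-box genes tbx-38 and tbx-37, which AB descendants need to make pharynx, rose in N2 from early to middle by 2.79 ± 0.16 and 1.69 ± 0.14 and fell from middle to late by 2.80 ± 0.15 and 1.65 ± 0.13. Window means of the tbx-38 level in N2 were 4.27, 7.06 and 4.25. In mex-3/skn-1 embryos they were 3.75, 3.66 and 3.73, and in pie-1 embryos 3.81, 6.05 and 3.92. In the middle window mex-3/skn-1 embryos had 5 of the 9 genes below N2 by the test, among them tbx-38 (-3.40 ± 0.17), tbx-37 (-1.85 ± 0.15), pha-4 and the Notch target ref-1 (-1.33 ± 0.18). The list's median was -1.06 there, beside 0.011 over all probe sets, of which 784 were lower. In the late window 3 of 9 were lower, beside 1379 of all probe sets. The list's count was between 1 and 7 over the alternatives.

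Genes that act downstream of PHA-4 in the pharynx were mostly still dim. Of 15 measured, 1 rose in N2 from the middle to the late window, eya-1, an Eyes absent homologue (2.61 ± 0.17, adjusted p = 4.58e-25). None rose from early to middle. Over all probe sets 767 and 709 rose, in the same order. The pharyngeal myosin myo-2 had window means of its level in N2 between 3.16 and 3.19, and the pharyngeal muscle factor ceh-22 between 2.83 and 2.89. None of the 15 was called lower in middle or late mex-3/skn-1 embryos, beside 784 and 1379 of all probe sets. The list's late median was 0.02. The eya-1 probe set also rose in mex-3/skn-1 embryos, by 1.27 ± 0.21 from early to middle and by 1.34 ± 0.19 from middle to late, with window means of its level of 3.30, 4.57 and 5.91.

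In the sister lineage E, 4 of 7 measured genes of endoderm were lower in late mex-3/skn-1 embryos, dve-1 (-2.33 ± 0.16), end-1 (-1.77 ± 0.15), elt-7 (-1.58 ± 0.12) and elt-2 (-1.34 ± 0.11), with 2 of 7 under centring on the brighter probe sets. End-1 and elt-7 encode GATA factors of intestinal specification, and elt-2 the main intestinal one. The list's median was -1.34, and 1379 of all probe sets were lower. None of the 7 was called in late pie-1 or pie-1/pal-1 embryos, beside 668 and 526 of all probe sets called in either direction.

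Lists of genes of other cell types were read beside these genes. Their levels do not tell cell numbers from RNA per cell, and their part in the results was not tested. In late mex-3/skn-1 embryos 3 of 10 C lineage genes were higher than in N2, scrt-1 (1.61 ± 0.14), cwn-1 (1.73 ± 0.47) and pal-1 (1.62 ± 0.47), beside 34 of all 22548 probe sets. The median of that list was 0.02. Of 10 neuronal genes 5 were lower, led by ceh-36 (-3.60 ± 0.13), with a median of -1.04, beside 1379 of all probe sets. None of 10 body muscle genes was called there, beside 1413 of all probe sets in either direction. In that list myo-3, unc-54, unc-15, deb-1, tnt-2 and unc-27 were dim, with late window means in N2 between 2.57 and 3.79. The lists share genes, hlh-1 and unc-120 between C lineage and body muscle, and elt-1 between C lineage and epidermis. The body muscle list also shares hnd-1 with that of EMS and MS specification, so these counts are not separate results. In late pie-1 embryos 5 of 10 C lineage genes and 3 of 10 body muscle genes were lower, beside 652 of all probe sets. The gene hlh-1 was among them in both lists (-1.96 ± 0.14). In late pie-1/pal-1 embryos 6 of 10 and 3 of 10 were lower, beside 465. The C lineage medians were -1.37 and -1.39 and those of body muscle, set largely by its dim genes, -0.11 and -0.12. Of 10 germline genes 4 were lower late in each of these genotypes (medians -0.57 and -0.68), and of 9 epidermal genes 3 and 2 were lower, in the same order (medians -0.32 and -0.22).

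Of the 8 genes of trehalose metabolism tps-2 alone rose from the middle to the late window in N2 and alone was lower in late mex-3/skn-1 embryos. Over all probe sets 767 rose and 1379 were lower in these contrasts. The other synthase gene, tps-1, had window means of its level of 3.77, 3.84 and 4.16 in N2 and 4.29, 4.25 and 3.70 in mex-3/skn-1 embryos, without a call. The trehalase gene tre-1 fell by 1.45 ± 0.14 from the early to the middle window in N2.

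Among the members, pha-4 and tps-2 followed each other most closely, with Pearson r = 0.959 over the 40 group means. It was 0.589 for pha-4 and ceh-51 and 0.464 for ceh-51 and tps-2. These correlations are descriptions of group means that share genotypes and times, with all genes read on the same arrays. Among 6600 probe sets of other genes whose mean in some group was at least 5 (6601 or 6602 for the other members), those most like pha-4 were ugt-23 (r = 0.985), alh-12 (0.985), nuc-1 (0.983), ppt-1 (0.981) and hex-1 (0.981). Several encode lysosomal enzymes, nuc-1 a deoxyribonuclease, ppt-1 a palmitoyl-protein thioesterase and hex-1 a hexosaminidase. For ceh-51 they were fbxc-26 (0.950), acs-3 (0.929), fbxb-74 (0.924), fbxb-96 (0.920) and best-18 (0.919), of which 3 are F-box genes by name.

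For tps-2 they were cth-1 (0.970), sptf-1 (0.970), Y43F8C.13 (0.970) and pgrn-1 by 2 probe sets (0.967 each). The gene cth-1 encodes a cystathionine gamma-lyase, sptf-1 an Sp1-family zinc finger protein and pgrn-1 a progranulin. For tbx-35, whose group means spanned 0.59, the highest values were lower, from 0.694 to 0.723, for cest-26, swsn-1, spat-2, unc-115 and ND1. The range of group means of pha-4 was 4.96, larger than in 98.7% of all probe sets. Those of ceh-51 (4.44) and tps-2 (2.48) were larger than in 97.8% and 82.6%, and that of tbx-35 larger than in 29.6%.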

How the data were processed

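The authors deposited 1 log2 value per probe set and array for each of 40 groups' arrays, 34 of N2, 28 of mex-3/skn-1, 27 of pie-1 and 34 of pie-1/pal-1. The log2 scale was read from the values, 1.79 to 12.7, with the method of probe summary, background correction and scaling not given in the sources used here. Of 22625 probe sets 77 controls were left out. Of the 22548 tested, the platform table names 1 gene for 20766 (20701 matched to RefSeq's genes), several for 887, and 895 have no name. No coordinates or sequences are given. Description files, which hold scan days and notes, covered 97 arrays. They note a rehybridisation for 5 arrays and another time for 2, and labelled groups were kept. The number of arrays limits precision.

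A mean per group was fitted with limma 3.58.1 in R 4.3.3 (83 residual and 4.8 prior degrees of freedom), windows being unweighted means of groups. Each contrast's p-values had the Benjamini-Hochberg adjustment across the whole table, and intervals are 95%. Lists were described by counts and medians. The members, lists and tests were chosen with earlier results of these data known. The text names up to 4 called genes of each list by adjusted p, and for each member the 5 probe sets most correlated with it. For a gene with several probe sets the brightest stands. The contrasts of 186 with 101 min, and the middle window without 83 min, were chosen after the values were seen. The steps were tested on simulated data. Alternatives were other scalings, filters, blocks, windows and probe sets, and leaving out arrays.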

Additional observations from a re-analysis of the deposited data

Results flagged for a closer look

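In groups of 4 arrays, a single array stood apart from the other 3 by Dixon's criterion in 5 of 48 tests, where chance alone gives about 1 in 20. For pha-4 the pie-1/pal-1 array at 0 min, replicate 4, measured 4.01 against 3.27 to 3.38, and the one at 66 min, replicate 1, measured 5.88 against 5.28 to 5.33. For ceh-51 the N2 array at 66 min, replicate 4, measured 5.47 against 5.98 to 6.05, and the one at 83 min, replicate 1, 7.74 against 7.18 to 7.23. For tps-2, replicate 2 of the 122 min group of mex-3/skn-1 measured 3.58 against 3.01 to 3.07.

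The late minus early change differed between mex-3/skn-1 and N2 embryos by limma's test of the difference itself, by -3.82 for pha-4, -2.01 for ceh-51 and -1.54 for tps-2 on the log2 scale (adjusted p = 2.72e-26, 5.66e-11 and 1.82e-07). The ceh-51 value was -0.88 and not called over the times with numbered N2 arrays.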

How the results depend on the processing

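Over 20 settings and 2168 values of the 4 genes, calls stayed in 2133, were lost in 20 and gained in 15, and no called value changed sign. Signs changed in 134 values that were not called in either fit. For pha-4 the N2 middle minus early difference and the middle mex-3/skn-1 minus N2 difference lost their calls with the other probe set (0.68 and -0.71) and without 83 min (0.68 and -0.88, chosen after seeing the data). For ceh-51 the N2 late minus middle difference gained a call in narrow windows (-1.31) and over numbered N2 times (-1.59), and had the opposite sign, uncalled, over lettered times (0.69). Its late pie-1/pal-1 difference gained one within scan day 7 (-1.09) and over lettered N2 times (-1.16), where that of pie-1 did too (-1.13).

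The number of probe sets called late in mex-3/skn-1 against N2 was 1413, and 736 with quantile normalization, 822 with brighter centring, 780 over numbered and 2487 over lettered times and 851 with the GAPDH term. Late in pie-1 it was 668, and 326, 312, 1024 (lettered) and 341 (GAPDH). Late in pie-1/pal-1 it was 526, and 817 (lettered) and 245 (GAPDH), and in middle mex-3/skn-1 927, and 559 (GAPDH). The GAPDH term was the log2 difference between the 3 prime and 5 prime GAPDH control probe sets. It ranged from 0.41 to 1.73 in N2 and from 0.77 to 2.28 in mex-3/skn-1 arrays. In pie-1 it ranged from 0.63 to 1.88 and in pie-1/pal-1 from 0.49 to 2.15. The causes of the changes in number were not tested.

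Leaving out each array in turn, N2 middle minus early ranged from 1.37 to 1.48 for pha-4, 2.65 to 2.76 for ceh-51, 0.37 to 0.44 for tps-2 and 0.01 to 0.09 for tbx-35. N2 late minus middle ranged from 2.48 to 2.57, -0.53 to -0.44, 1.26 to 1.34 and -0.08 to -0.03 for the same genes. Middle mex-3/skn-1 minus N2 ranged from -1.56 to -1.41, -2.75 to -2.57, -0.38 to -0.18 and 0.19 to 0.28, and late from -3.95 to -3.81, -2.37 to -2.27, -1.67 to -1.57 and 0.13 to 0.21. Late pie-1 minus N2 ranged from 0.08 to 0.20, -0.82 to -0.62, -0.24 to 0.00 and 0.27 to 0.36. Late pie-1/pal-1 minus N2 ranged from 0.43 to 0.59, -1.01 to -0.82, -0.14 to 0.03 and 0.16 to 0.25, where ceh-51 gained a call without the 101 min array, replicate 2.

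Same-numbered arrays had a median correlation of deviations between 0.0694 and 0.301 by genotype, against -0.102 to -0.0147 for other arrays, and not over 0.1 in every pair, so the numbers were not taken as pairs. In pie-1/pal-1, where 103 of 122 same-numbered pairs were over 0.1, numbers 1 and 2 also share a scan day, as do 3 and 4. With a random replicate block the late mex-3/skn-1 minus N2 difference was -3.90 for pha-4, -2.31 for ceh-51 and -1.63 for tps-2, and no call of the 4 genes changed. A fixed replicate block could not be fitted for N2. Leaving out 5 far arrays gave -3.86, -2.22 and -1.36. These arrays include both mex-3/skn-1 arrays of 143 min, so that time was left out of both genotypes in these differences.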
